A study of Mus musculus with 9 samples.

Results

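The suprabasal epidermal keratins and Krtdap were described in mouse back skin 24 h after tape stripping, a mild injury in which adhesive tape peels off the outer skin layers. The set holds the 7 genes Krt1, Krt2, Krt10, Krt77, Krt78, Krt80 and Krtdap, chosen by name among 23238 gene symbols, and each had 1 entry in every table. States of the skin were compared with 3 libraries each, all from wild-type C57BL/6 (B6) mice. They were stripped skin that received a cream holding NGO, nano-sized sheets of oxidised graphene, at 50 µg in 100 µL per mouse, stripped skin with control cream, and unstripped skin that the titles also list under control cream. The protocol text places cream on stripped areas alone, so whether the unstripped skin received any is not clear, and no NGO-treated unstripped skin was analysed. The replicates carry numbers, with nothing to say that each is a separate animal. A p-value here thus covers only the spread among samples within groups, which may be technical. In the main fit that spread was estimated over all 9 libraries, so each comparison also draws on the group outside it. The question, from the series title, is whether the NGO cream eased acute skin inflammation. For these genes it becomes how far each stood from its unstripped level.

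Keratins are the intermediate filament proteins of epithelial cells, and a filament pairs a type I with a type II chain. Dividing basal keratinocytes make Krt5 and Krt14, and cells that leave the basal layer switch to Krt1 and Krt10, so this pair marks the start of terminal differentiation. Krt10 is the only type I chain in the set, while Krt1, Krt2, Krt77, Krt78 and Krt80 are type II chains. Krtdap is no keratin but a small secreted protein of differentiating keratinocytes.

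In mm10 coordinates of GENCODE M21, Krt10 lay on chromosome 11 (99385254 to 99389364, minus strand) and Krtdap on chromosome 7 (30787896 to 30791097, plus strand). The type II genes lay on the minus strand of chromosome 15, in the order Krt80 (101347444 to 101370162), Krt2 (101810689 to 101818169), Krt1 (101845426 to 101850794), Krt77 (101858731 to 101869705) and Krt78 (101946001 to 101954287). Antisense genes that overlap Krt10 and Krt80 in the annotation had no entry of their own in the tables, and the use of strand in counting is not given in the sources used.

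RefSeq windows (build GRCm38.p6) were given for 5 of the 7 genes, and the 250 bases before the RefSeq start site are shown for 3. They are Krt10 (chr11:99389365-99389614, minus strand), Krtdap (chr7:30787655-30787904, plus strand) and Krt77 (chr15:101869706-101869955, minus strand). Between NGO-treated and stripped control skin, Krt10 did not pass the threshold given below, while Krtdap and Krt77 were higher. The Krtdap to Krt10 ratio did not pass there (exact permutation, adjusted p = 0.25), and no Krt77 to Krt10 ratio was formed there. All 3 genes lay below unstripped skin in each NGO-treated library. Each window reads 5′ to 3′ along the gene's strand. The Krtdap window ends at 30787904, past the GENCODE M21 gene start at 30787896, so its distances below count from the RefSeq start. Capitals mark matches, on either strand, to the TATA box TATAAA, the AP-1 motif TGANTCA, the GATA factor motif GATAAG or the KLF motif CCACCC.
Krt10: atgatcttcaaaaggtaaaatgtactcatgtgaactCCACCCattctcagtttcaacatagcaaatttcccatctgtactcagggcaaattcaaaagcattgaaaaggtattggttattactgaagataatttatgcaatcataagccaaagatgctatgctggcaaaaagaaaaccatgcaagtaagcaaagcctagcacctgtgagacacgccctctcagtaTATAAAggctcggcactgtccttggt
Krtdap: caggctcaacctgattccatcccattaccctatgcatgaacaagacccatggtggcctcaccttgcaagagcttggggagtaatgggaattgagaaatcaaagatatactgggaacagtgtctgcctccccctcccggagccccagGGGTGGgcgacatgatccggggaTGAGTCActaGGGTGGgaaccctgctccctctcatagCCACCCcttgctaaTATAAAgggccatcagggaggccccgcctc
Krt77: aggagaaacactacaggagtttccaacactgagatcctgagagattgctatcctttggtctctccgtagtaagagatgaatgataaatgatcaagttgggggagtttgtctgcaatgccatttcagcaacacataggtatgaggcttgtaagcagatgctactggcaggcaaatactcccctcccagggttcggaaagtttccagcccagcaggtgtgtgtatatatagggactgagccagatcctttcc
The Krtdap window held TATAAA 30 bases before the start, 1 TGANTCA run 81 bases before it and 3 CCACCC runs, none of which overlapped. The Krt10 window held TATAAA 26 bases before the start and 1 CCACCC run 214 bases before it. No run of the 4 motifs was in the Krt77 window. Over the 5 windows, TATAAA was in 2, CCACCC in 2, TGANTCA in 1 and GATAAG in 0. Among 32851 windows of this length in the table, 12.4% held TATAAA, 28.1% CCACCC, 6.75% TGANTCA and 6.55% GATAAG. These are matches of letters and not sites of binding.

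Values below are CPM (counts scaled to a common library size) with TMM factors, given as mean ± SD over 3 libraries, and log2 fold changes with their standard error (SE). A gene is called at an edgeR adjusted p under 0.05, adjusted over all 13740 genes tested. All 7 genes passed the filter on low counts, Krt77, Krt78 and Krt80 with a group at 0 in each case. Library totals ran from 2997238 to 6303322 counts in NGO-treated, 2019739 to 4053655 in stripped control and 2794791 to 2937738 in unstripped skin. The groups also differed in makeup. Counts of 15 basal keratinocyte markers took 1.40% to 2.15% of NGO-treated, 0.164% to 0.266% of stripped control and 2.75% to 3.39% of unstripped libraries. Counts of 22 skeletal muscle markers took 2.64% to 5.48%, 5.10% to 11.4% and 0.0254% to 0.197% in the same order of groups, with no marker of either list at 0 in any group. The ribosomal RNA precursor Rn45s took 9.35% to 21.0%, 22.1% to 25.1% and 13.2% to 16.0%. The basal keratinocyte share is weighted to its most abundant markers, Krt14, Krt5 and Krt15. Over all 15 markers the median log2 fold change was -1.63 after stripping and -0.22 for NGO-treated against unstripped skin. In bulk skin, fewer cells of a type and less RNA per cell cannot be told apart, and the part of these shares in the results below was not tested.

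After stripping with control cream, 5 of the 7 genes fell and 0 rose (edgeR, and 0 also at an unadjusted p under 0.05), against 7.64% of all tested genes that fell and 5.97% that rose. Krt77 and Krt78 had no count left, Krt1 had 8 counts over the 3 libraries, Krt10 kept 1.98% of its unstripped mean and Krtdap 5.11%. With the NGO cream 4 of 7 were higher than in stripped control skin (Krt1, Krt77, Krt78 and Krtdap) and 0 lower (1 at an unadjusted p under 0.05), against 3.87% of all genes that were higher and 1.18% that were lower. Krt10 was not called between these groups. Against unstripped skin 3 of 7 were lower (Krt1, Krt10 and Krtdap) and 0 higher, where 0.451% of all genes were lower and 2.06% higher. At an unadjusted p under 0.05, 6 of 7 were lower. No share of all genes was formed at an unadjusted p, here or below, so counts at that threshold have no background. None of the 7 reached the unstripped range in any NGO-treated library. Their levels were 0% of the unstripped mean for Krt80, 3.57% for Krt10, 5.23% for Krt2, 11.1% for Krt1, 13.1% for Krt77, 13.9% for Krt78 and 24.2% for Krtdap. The groups did not overlap for 6 of 7 genes after stripping (38.5% of all genes), for 3 of 7 between NGO-treated and stripped control skin (25.2%), and for 7 of 7 between NGO-treated and unstripped skin (26.2%).

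**Figure D1:**
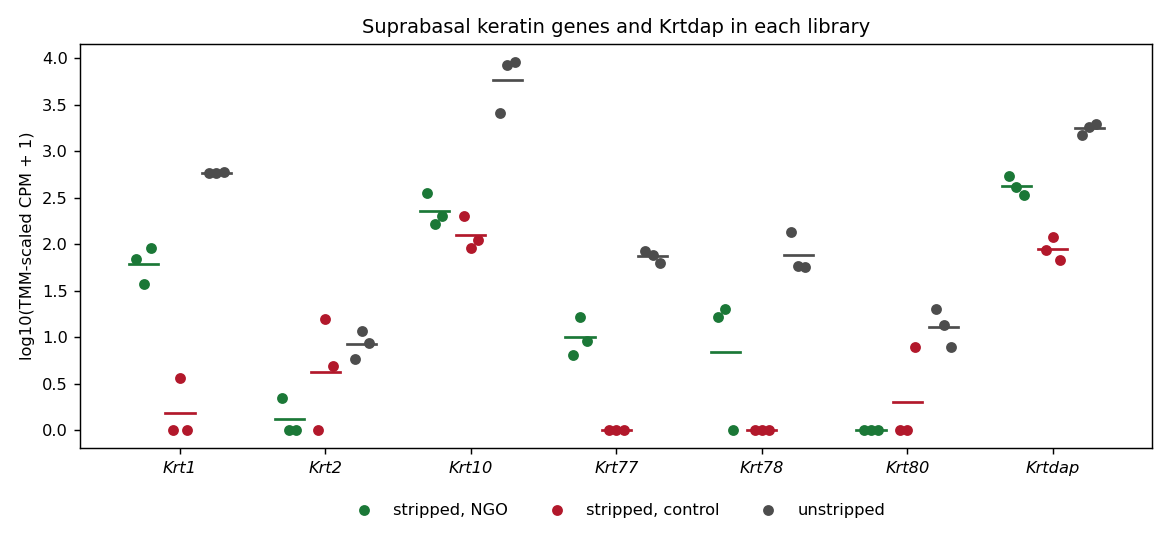
Each point is 1 library, plotted as log10 of the TMM-scaled CPM plus 1, for the 7 genes in NGO-treated stripped, stripped control and unstripped skin; the bars are means of the plotted values over 3 libraries. Every NGO-treated point lies below every unstripped point of its gene, and the Krt77 and Krt78 points of stripped control skin all lie at 0.

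Krt1, the type II partner of Krt10, had 68.8, 35.9 and 89.0 CPM in NGO-treated skin, against 0, 8 and 0 counts in stripped control samples and 580, 580.1 and 593 CPM in unstripped skin. The unstripped libraries were nearly level, the stripped control libraries held 8 Krt1 counts in all, and no groups overlapped. Krt1 fell by 9.20 ± 0.83 (log2, SE) after stripping (edgeR adjusted p = 2.10e-05). It was 6.03 ± 0.77 higher in NGO-treated than in stripped control skin (edgeR adjusted p = 0.00126), or 74.5-fold in mean CPM. It remained 3.18 ± 0.59 below unstripped skin (edgeR adjusted p = 0.00872), a 9.05-fold lower mean. All 8 counts came from stripped control replicate 2, so without it Krt1 stood at 0 in that group. Without NGO replicate 2 the difference from unstripped skin was no longer called (edgeR adjusted p = 0.0664), and in a fit of NGO-treated and stripped control skin alone the difference between them was not called (edgeR adjusted p = 0.0530).

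Krt10, the type I chain, had 354, 165 and 201 CPM in NGO-treated skin, against 199, 89.0 and 111 CPM in stripped control samples and 2608, 8495 and 9042 CPM in unstripped skin. NGO-treated and stripped control libraries overlapped, and both lay far under the unstripped libraries, of which replicate 1 was the lowest. Krt10 fell by 5.66 ± 0.56 after stripping (edgeR adjusted p = 4.10e-05), a 50.6-fold lower mean. It differed by 0.86 ± 0.47 between NGO-treated and stripped control skin (edgeR adjusted p = 0.317) and was not called there in any of 17 alternative analyses (adjusted p from 0.169 to 0.683). NGO-treated skin lay below unstripped skin, with a log2 difference of -4.81 ± 0.54 (edgeR adjusted p = 0.000363), a 28.0-fold lower mean. Leaving out unstripped replicate 1 put the NGO-treated level at 2.72% of the unstripped mean.

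Krtdap had 542, 408 and 338 CPM in NGO-treated skin, against 85.3, 119 and 66.8 CPM in stripped control samples and 1491, 1842 and 1978 CPM in unstripped skin. The 3 groups did not overlap. Krtdap fell by 4.29 ± 0.35 after stripping (edgeR adjusted p = 1.08e-05). It rose by 2.24 ± 0.32 with NGO against stripped control skin (edgeR adjusted p = 0.00236), or 4.74-fold. It was still 2.04 log2 units lower than in unstripped skin (-2.04 ± 0.31, edgeR adjusted p = 0.00290), or 4.13-fold. Krtdap was called in all 3 comparisons under each of the 17 alternatives.

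Krt77, a type II keratin closely related to Krt1, had 18, 67 and 49 counts (5.43, 15.5 and 8.15 CPM) in NGO-treated skin, against 0 counts in each stripped control library and 243, 256 and 211 counts (83.6, 75.5 and 62.2 CPM) in unstripped skin. The groups were fully separate. A floor of 3 counts over the stripped control libraries was worth 0.369 CPM, so Krt77 was at least 199.7-fold lower there than in unstripped skin (edgeR adjusted p = 0.000147) and at least 26.3-fold higher in NGO-treated skin than there (edgeR adjusted p = 0.00487). Such bounds cover counting error only. Limma-voom and a fit of these groups alone did not call the second difference (adjusted p = 0.0849 and 0.156). The log2 difference of NGO-treated from unstripped skin was -2.92 ± 0.71, which missed the threshold (edgeR adjusted p = 0.0567) and passed it in 6 of 17 alternatives.

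Krt78, a type II keratin, had 51, 82 and 0 counts in NGO-treated skin. It had 0 counts in each stripped control library and 387, 194 and 191 counts in unstripped skin. NGO replicate 3, the deepest library, was the one at 0, so this group overlapped with stripped control skin and not with unstripped skin. Krt78 was at least 223-fold lower in stripped control than in unstripped skin (edgeR adjusted p = 0.00448). It was at least 31.0-fold higher in NGO-treated than in stripped control skin, a call that only just passed (edgeR adjusted p = 0.0485) and held in 3 of 16 alternatives, and that was lost with the replicate number as a block (edgeR adjusted p = 0.0760), with RLE scaling (0.0535) and in 8 of the 9 fits without 1 library (up to 0.117; it passed without NGO replicate 3). Krt78 passed the filter through the unstripped libraries and was not tested in a fit of NGO-treated and stripped control skin alone. Between NGO-treated and unstripped skin the log2 difference was -2.85 ± 1.20 (edgeR adjusted p = 0.366).

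Krt2 and Krt80 were the genes with fewest counts and were called in no comparison. Krt2, a late suprabasal keratin that in mice is most prominent in ear, tail and sole skin, had 4, 0 and 0 counts in NGO-treated skin, against 0, 45 and 12 in stripped control skin and 14, 36 and 26 in unstripped skin. The stripped control libraries spanned the whole unstripped range, and the mean there was 80.0% of the unstripped mean, or 26.2% without stripped control replicate 2 and 124% without replicate 1. The NGO-treated libraries all lay below the unstripped ones, at 5.23% of the mean, all from replicate 1. Its log2 difference was -4.23 ± 2.15 for NGO-treated against unstripped skin (edgeR adjusted p = 0.504) and -3.92 ± 2.13 for NGO-treated against stripped control skin (edgeR adjusted p = 0.314). Krt80, a type II keratin linked to advanced differentiation and found near desmosomes, had 0 counts in each NGO-treated library, against 0, 0 and 21 in stripped control skin and 55, 42 and 23 in unstripped skin. NGO-treated skin was thus at least 57.7-fold below unstripped skin, a bound that covers counting error only, and edgeR did not call it (adjusted p = 0.170). DESeq2 (adjusted p = 0.0126), limma-voom (0.0172) and a fit of these groups alone (edgeR adjusted p = 0.0308) did. Krt80 passed the filter through the unstripped libraries, the group where it was highest, so these calls are no independent support.

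Within each gene the levels thus had a common order for Krt1, Krt77, Krtdap, Krt78 and Krt10, with stripped control skin lowest and unstripped skin highest. NGO-treated and stripped control skin overlapped for Krt10 and Krt78. For Krt2 and Krt80 the NGO-treated mean was the lowest, and neither gene was called against stripped control skin.

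The distance covered can also be put on the log2 scale, as the NGO-treated minus stripped control difference over the size of the fall after stripping. This quotient was 15.1% for Krt10, 52.3% for Krtdap and 65.5% for Krt1, with an SD over the NGO-treated libraries of 10.3, 7.95 and 7.19 percentage points, on log2 of CPM plus 0.5. Both folds share the stripped control libraries, so no test was made. The Krt10 value was 8.31% without NGO replicate 1, and the Krt1 value rests on the 8 counts of stripped control replicate 2, without which it cannot be formed. No quotient was formed where a group was at 0.

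**Figure D2:**
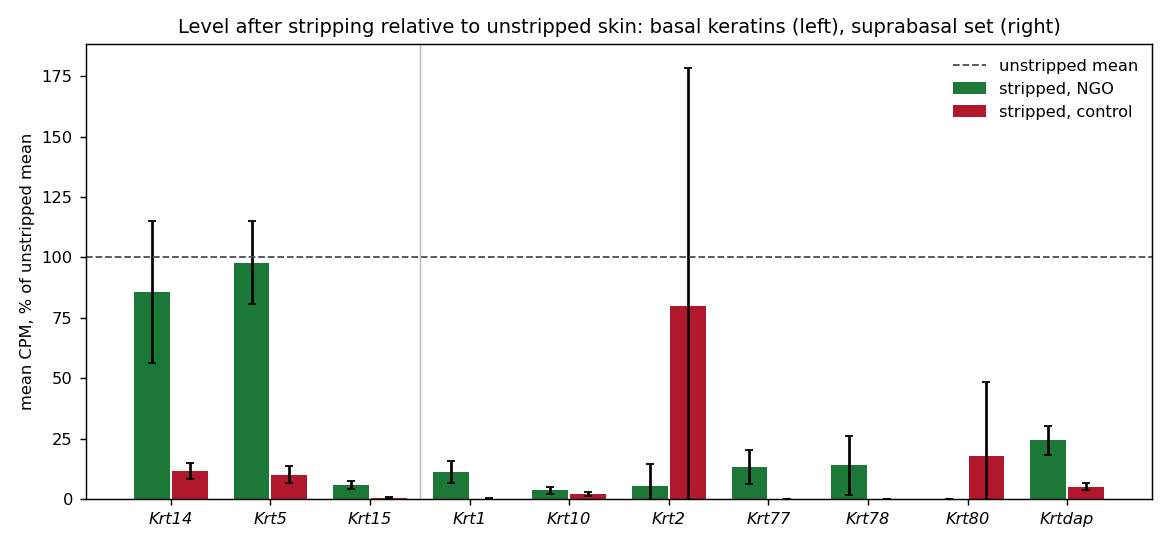
Bars show mean CPM in NGO-treated and stripped control skin as a percent of the unstripped mean (dashed line at 100), with error bars of 1 SD over 3 libraries cut at 0, for the basal keratins Krt14, Krt5 and Krt15 and the 7 genes of the suprabasal set. The NGO-treated bars of the suprabasal set reach from 0 for Krt80 to 24.2 for Krtdap, and the Krt2 bar of stripped control skin, 80.0, has the widest error.

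Of the 3 basal keratins, Krt5 and Krt14 were not called between NGO-treated and unstripped skin, while Krt15 was low there like the suprabasal set. Krt5 averaged 6216 ± 1085 CPM in NGO-treated skin, 639 ± 216 CPM in stripped control samples and 6354 ± 476 CPM in unstripped skin (log2 difference of NGO-treated from unstripped -0.03 ± 0.30, edgeR adjusted p = 0.998). Krt14 averaged 6158 ± 2118, 838 ± 238 and 7196 ± 4418 CPM in the same order (-0.22 ± 0.41, edgeR adjusted p = 0.971). Krt15, a keratin of basal cells and follicle stem cells, was at 632 ± 189, 46.4 ± 17.3 and 10891 ± 1128 CPM, or 5.81% of the unstripped mean in NGO-treated skin, and stayed lower than in unstripped skin (-4.11 ± 0.38, edgeR adjusted p = 0.000115).

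A ratio of counts inside a library does not depend on depth or on the share of muscle RNA. The log2 ratio of Krt10 to the sum of Krt5 and Krt14 was -5.74 ± 0.24 in NGO-treated, -3.51 ± 0.74 in stripped control and -1.16 ± 1.49 in unstripped skin (SD, n = 3). The NGO-treated minus stripped control difference was -2.23, without overlap (exact permutation p = 0.1, two-sided, the smallest that 3 against 3 libraries can give). The Krtdap ratio to these basal keratins was -4.85 ± 0.27 in NGO-treated, -4.02 ± 0.20 in stripped control and -2.89 ± 0.68 in unstripped skin, again in 3 separate ranges (exact permutation p = 0.1 for each pair). For Krt1 the ratio was -7.65 ± 0.54 in NGO-treated and -4.48 ± 0.49 in unstripped skin, and for Krt77 -10.40 ± 1.09 and -7.47 ± 0.34 (exact permutation p = 0.1 each). All 8 comparisons of this family had an adjusted p of 0.1. Relative to Krt5 plus Krt14, Krt10 and Krtdap had their lowest values in NGO-treated skin. Krt15 was not in this denominator, and no ratio to it was formed. In NGO-treated against unstripped skin its log2 difference was -4.11, against -2.04 for Krtdap and -4.81 for Krt10. The Krtdap order thus depends on which basal keratins are used. No ratio was formed for Krt1, Krt77 and Krt78 in stripped control skin, where libraries were at 0. There the NGO-treated minus stripped control log2 difference of Krt1 was 6.03, against 3.28 for Krt5 and 2.88 for Krt14. Krt77 and Krt78 were at least 26.3-fold and 31.0-fold higher in mean CPM, bounds that cover counting error only. The Krt1 value rests on 8 stripped control counts from 1 library, and Krt78 was at 0 in NGO replicate 3. The means of Krt1 and Krt77 thus rose more than those of Krt5 and Krt14, the other way from Krt10, a contrast that was not tested.

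Ratios between genes of the suprabasal set were compared next, and none of the 5 comparisons had an adjusted p under 0.25. The log2 ratio of Krtdap to Krt10 was 0.89 ± 0.37 in NGO-treated, -0.51 ± 0.84 in stripped control and -1.73 ± 0.80 in unstripped skin. NGO-treated skin stood 1.40 above stripped control skin and 2.63 above unstripped skin, with no overlap in either case (exact permutation p = 0.1 each, 0.25 adjusted over 5 comparisons). Stripped control and unstripped skin overlapped, with a difference of 1.23 (exact permutation p = 0.2). The Krt1 to Krt10 ratio was -1.91 ± 0.64 in NGO-treated and -3.32 ± 1.0002 in unstripped skin, and these overlapped (exact permutation p = 0.3), as did the Krt77 to Krt10 ratio (-4.66 ± 1.29 against -6.32 ± 1.19, exact permutation p = 0.2). Unstripped replicate 1, with the fewest Krt10 counts, gave the highest unstripped value in all 3 ratios.

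**Figure D3:**
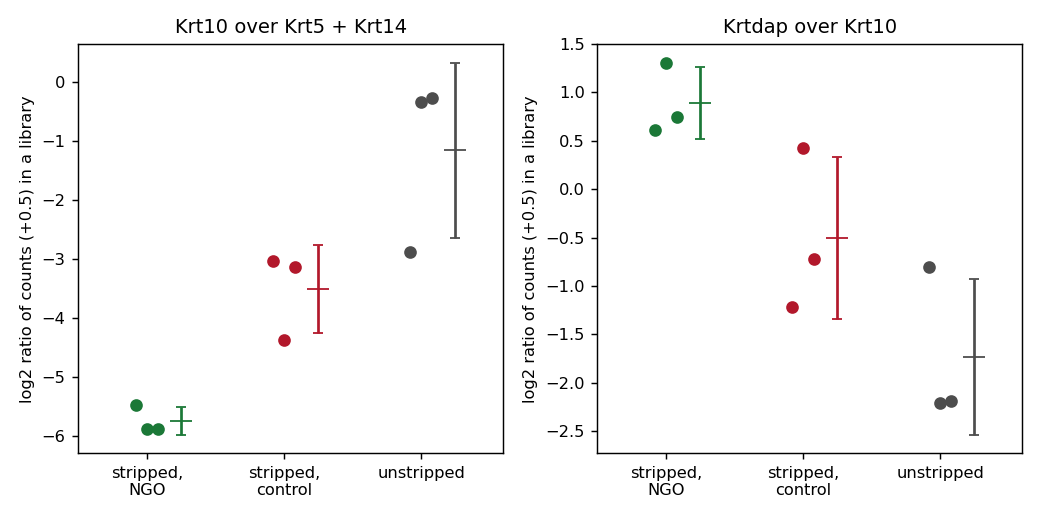
Log2 ratios of counts, with 0.5 added to each term, of Krt10 to Krt5 plus Krt14 (left) and of Krtdap to Krt10 (right); points are libraries, and the bars beside them are the mean and 1 SD (n = 3). The NGO-treated points are the lowest on the left, around -5.74, and the highest on the right, around 0.89.

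Compared over all 9 libraries as centred log2 CPM profiles, the closest pairs in the set were Krt10 with Krtdap (root-mean-square difference of 1.22 log2 units), Krt77 with Krtdap (1.24) and Krt1 with Krt77 (1.33). Krt1 and Krt2 were farthest apart (3.85). Outside the set, the profile closest to its mean was that of Scel, which encodes sciellin, a precursor of the cornified envelope (0.42). Clca3a2 (0.55), Rnase2b (0.62), Fcgbp (0.64) and Vstm5 (0.67) came next, against a median of 2.26 over 10287 genes compared. The genes of the set lay themselves from 0.67 (Krtdap) to 1.99 (Krt1) and 2.13 (Krt2) from that mean, which thus averages unlike profiles. Scel averaged 47.2 ± 25.5 CPM in NGO-treated, 13.1 ± 3.79 CPM in stripped control and 310.3 ± 10.3 CPM in unstripped skin. Its log2 difference was -4.56 ± 0.46 for stripped control against unstripped skin, 1.84 ± 0.42 for NGO-treated against stripped control skin and -2.72 ± 0.42 for NGO-treated against unstripped skin, given without a test because Scel was chosen for this profile in the same libraries.

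Krtdap has Dmkn and Sbsn as its neighbours on chromosome 7, with no other protein-coding gene from the start of Sbsn (30751471) to the end of Krtdap, and all 3 encode secreted proteins of stratified epithelium. Sbsn was picked after its values were seen. Dmkn (dermokine) averaged 712 ± 360 CPM in NGO-treated, 97.9 ± 41.6 CPM in stripped control and 1269 ± 497 CPM in unstripped skin. Sbsn (suprabasin) averaged 333 ± 136, 79.8 ± 31.3 and 1069.6 ± 278 CPM. Both fell after stripping (-3.70 ± 0.49 and -3.75 ± 0.41, edgeR adjusted p = 0.000253 and 7.19e-05) and rose with NGO against stripped control skin (2.86 ± 0.47 and 2.07 ± 0.38, edgeR adjusted p = 0.00507 and 0.00952). Against unstripped skin Dmkn was not called (-0.83 ± 0.44, edgeR adjusted p = 0.546) and Sbsn was lower (-1.68 ± 0.37, edgeR adjusted p = 0.0278).

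Along chromosome 15, 23 keratin genes had an entry and 13 were tested, 8 of them outside the suprabasal set. Of these 8, 2 fell after stripping (Krt5 and Krt79), 3 rose with NGO against stripped control skin (Krt5, Krt79 and Krt6b), and 0 were lower and 2 higher in NGO-treated than in unstripped skin (Krt6a and Krt6b). Krt79, a keratin of the follicle funnel and sebaceous duct, averaged 187 ± 25.9 CPM in NGO-treated, 16.7 ± 16.9 CPM in stripped control and 455 ± 179 CPM in unstripped skin. Krt6a and Krt6b, wound-induced keratins with near-identical sequence whose reads may be split between them, were 2.92 ± 0.48 and 2.33 ± 0.40 higher in NGO-treated than in unstripped skin (edgeR adjusted p = 0.00434 and 0.00591).

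**Figure D4:**
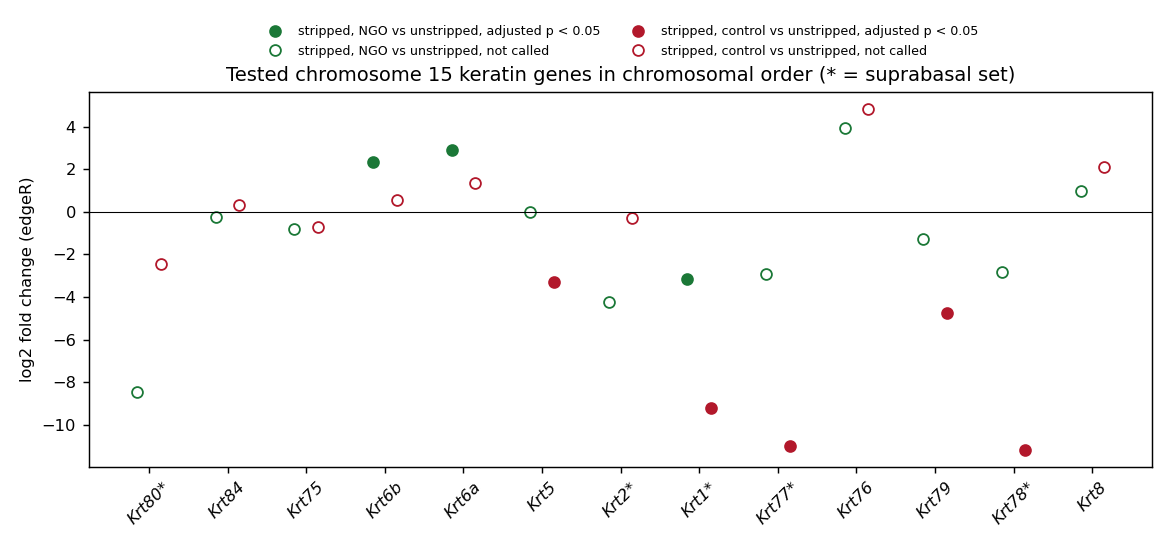
Fitted log2 fold changes of the 13 tested keratin genes of chromosome 15 in chromosomal order, for NGO-treated and for stripped control skin, each against unstripped skin; filled points had an edgeR adjusted p under 0.05. Krt1, Krt77 and Krt78 of stripped control skin lie lowest, and fitted values for Krt77 and Krt78 there and for Krt80 in NGO-treated skin are against a group at 0 and have no fixed size.

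The wider differentiation program was taken from lists that share no gene with the suprabasal set. Of 19 tested early differentiation genes 13 fell after stripping (median log2 fold change -3.65, against -0.20 over all genes tested), 8 rose with NGO against stripped control skin (median 2.67, against 0.07), and 3 were lower in NGO-treated than in unstripped skin (median -0.83, against -0.07). For Krt1, Krt10 and the other genes of the suprabasal set the last median was -3.18, with 3 of 7 lower. Lgals7, which encodes the keratinocyte lectin galectin-7, averaged 9850 ± 3038 CPM in NGO-treated, 706 ± 199.8 CPM in stripped control and 8152 ± 2895 CPM in unstripped skin. Perp, a desmosomal protein gene, averaged 555 ± 191, 93.0 ± 16.3 and 1421 ± 51.5 CPM and stayed lower in NGO-treated than in unstripped skin (-1.36 ± 0.30, edgeR adjusted p = 0.0271).

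Of 23 tested late differentiation genes 10 fell after stripping (median -3.62, or -3.47 with the 6 genes at 0 in stripped control skin set to their bound), 5 rose with NGO against stripped control skin (median 2.07, or 1.75 with the bound) and 1 was lower in NGO-treated than in unstripped skin (median -1.16). That gene was Spink5, an inhibitor of the skin proteases that shed cornified cells, at 209.9 ± 80.5 CPM in NGO-treated, 49.3 ± 19.2 CPM in stripped control and 727 ± 80.5 CPM in unstripped skin (-1.79 ± 0.36 from unstripped, edgeR adjusted p = 0.0153). Flg2, a filaggrin family gene, averaged 84.5 ± 33.5, 6.27 ± 8.73 and 458 ± 89.1 CPM and was not called against unstripped skin (-2.44 ± 0.73, edgeR adjusted p = 0.135). Klk7, a shedding protease gene, averaged 358 ± 32.8, 423 ± 194 and 342 ± 152 CPM and was called in no comparison.

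Among 20 regulators of keratinocyte differentiation, 10 fell after stripping (median -2.39), 7 rose with NGO against stripped control skin (median 1.24) and 3 were lower in NGO-treated than in unstripped skin (median -0.86). Klf4, a transcription factor of barrier formation, averaged 283 ± 41.3 CPM in NGO-treated, 139.7 ± 17.4 CPM in stripped control and 729.6 ± 39.8 CPM in unstripped skin, and stayed lower than in unstripped skin (-1.37 ± 0.27, edgeR adjusted p = 0.0120). Gata3 averaged 195 ± 87.7, 24.0 ± 27.7 and 1098 ± 288 CPM, and its difference from unstripped skin missed the threshold (-2.49 ± 0.65, edgeR adjusted p = 0.0678).

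In the other keratin lists the counts were small. Of 4 stress keratins 1 fell after stripping (Krt17) and 2 were higher in NGO-treated than in unstripped skin. With NGO against stripped control skin 1 rose (Krt6b), while all 4 were higher at an unadjusted p under 0.05. Of 5 tested follicle and gland keratins 2 fell, Krt79 and Krt23, the second to 0 counts. With NGO against stripped control skin 1 rose (Krt79), and 3 were higher at an unadjusted p under 0.05. In NGO-treated against unstripped skin edgeR called 0 of them (1 lower at an unadjusted p under 0.05). Of 3 basal keratins all fell, all rose with NGO, and Krt15 stayed lower. The single simple epithelial keratin tested, Krt8, was called nowhere.

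Markers of other cell types moved beside these genes. All 22 muscle markers were higher in stripped control than in unstripped skin, and 21 were higher in NGO-treated than in unstripped skin. Between NGO-treated and stripped control skin edgeR called 0 of them, while all 22 had negative log2 differences (-1.90 to -1.06, median -1.51) and 14 were lower at an unadjusted p under 0.05. Of 10 neutrophil markers 5 rose after stripping, 5 were lower in NGO-treated than in stripped control skin and 5 were higher than in unstripped skin. Of 15 basal keratinocyte markers 9 fell after stripping, 8 rose with NGO against stripped control skin and 1 stayed lower than in unstripped skin. In the same order of comparisons, calls were 5 higher, 2 lower and 5 higher of 13 adipocyte markers, 5, 0 and 4 higher of 10 fibroblast markers, 6, 0 and 2 higher of 9 endothelial markers, and 2, 0 and 1 higher of 10 macrophage markers. At an unadjusted p under 0.05, 0 fibroblast, 2 endothelial and 3 macrophage markers were lower in NGO-treated than in stripped control skin. Calls at an adjusted p under 0.05, in the order of comparisons above, were 3 lower, 4 higher and 0 of 11 sebaceous gland markers. For 4 red blood cell markers they were 3 higher, 1 lower and 1 higher. None of 10 hair shaft markers passed the filter, and all 10 were at 0 in stripped control skin. The part of these markers in the results was not tested. With muscle, adipocyte, hair shaft and red blood cell markers and Rn45s left out of the library sizes, the suprabasal set gave the same calls in each comparison.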

How the data were processed

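The authors deposited 1 table of whole-number read counts per gene symbol for each of 9 libraries. Per the labels' protocols, 500 ng of Trizol RNA went into a Lexogen Quant-Seq library, a 3′-tag method. The submitters' processing notes list Bowtie2 and bedtools with no version, and mm10 as the genome. The handling of reads with several matches is not stated there, so related keratins may share reads. Every table held 23282 entries, of which 44 repeats were kept apart, and 95.5% of symbols matched GENCODE M21.

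Counts were fitted in R 4.3.3 with the edgeR 4.0.16 quasi-likelihood test (robust) on all 9 libraries by group, with TMM scaling and filterByExpr, and p-values were adjusted by Benjamini-Hochberg over 13740 genes. An SE is the fold change over the square root of F. The fits were also run on simulated data. Changes planted there were smaller than the fitted folds of Krt1. No group was set to 0, so folds against a group at 0 were not checked. Ratios were compared by exact permutation, and those with a library at 0 were left out after the data were seen. Alternatives included DESeq2 1.42.0, limma 3.58.1 (voom), RLE scaling, other filters, a replicate block and leaving out each library.

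The genes and lists were chosen with earlier results of these data known. Named genes are the suprabasal set, the 3 most abundant tested genes of a list, and the 5 with the most similar profile. A gene that this rule names is not reported here. Replicate pairs within a group differed beyond sampling noise.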

Additional observations from a re-analysis of the deposited data

How the results depend on the processing

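After stripping, the same 5 genes were called under all 17 alternatives. For NGO-treated against stripped control skin the 4 calls became 2 with limma-voom (Krt1 and Krtdap) and 1 in a fit of these groups alone (Krtdap; Krt78, Krt2 and Krt80 did not pass its filter and were not tested), and ranged from 3 to 4 without 1 library. For NGO-treated against unstripped skin the 3 calls became 5 with DESeq2 and in a fit of the groups alone (with Krt77 and Krt80 added) and 6 with limma-voom (with Krt78 as well), and ranged from 2 to 4 without 1 library. The causes were not tested. No share of all genes called was formed for the alternatives, so these counts cannot be set against one. The log2 quotient of Krt1 ranged from 61.8% to 68.6% without 1 library, and could not be formed without stripped control replicate 2, which held all 8 counts. The Krt2 difference after stripping, not called, changed sign without stripped control replicate 1, to 0.31, and ranged from -1.89 to 0.31 without 1 library. RLE scaling moved the median of all genes to -0.07 after stripping, against -0.20 with TMM, and to -0.05 for NGO-treated against stripped control skin, against 0.07, and no gene of the set changed direction with it. Same-numbered libraries of different groups had correlations of deviations from -0.0573 to 0.0858. These gave no sign of pairing by number but cannot exclude it. With the replicate block, 5, 3 and 3 genes were called in the order of comparisons above, Krt78 being the one lost. Counts were few for Krt2, Krt77, Krt78 and Krt80, whose group sums ran from 0 to 772. The part of depth in this was not tested, and Krt78 was at 0 in NGO replicate 3, the deepest library.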

Other observations

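In unstripped skin the pair partners Krt1 and Krt10 did not vary alike. Krt1 ranged from 580 to 593 CPM over the 3 libraries, while Krt10 ranged from 2608 to 9042 CPM, with unstripped replicate 1 lowest. Krt18, a simple epithelial keratin that did not pass the filter and was picked after its values were seen, had 0 counts in NGO-treated, 102 in stripped control and 0 in unstripped skin.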
